A study of Homo sapiens with 6 samples.

Results

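TGF-beta, activins and bone morphogenetic proteins (BMPs) form one family of secreted growth factors. A set of 10 of its genes was followed in AsPC-1 cells, an established human pancreatic adenocarcinoma line. The rows were taken by symbol from the deposited table, and all 10 were found among its 26228 rows. They are the ligand genes TGFB1, TGFB2, BMP4, INHBA, INHBB and INHBE, the receptor genes TGFBR1 and TGFBR2, and the intracellular genes SMAD3 and SMAD7. Poly(A) RNA was sequenced from 3 libraries of cells given vehicle and 3 of cells given DON, or 6-diazo-5-oxo-L-norleucine. DON resembles glutamine and blocks enzymes that use it. Both groups were kept for 24 h in medium without serum. The labels name neither the vehicle nor the dose, and they do not tell whether replicates were separate cultures. The p-values therefore measure only the spread between these libraries, which may be technical. The question is how these transcripts respond to a block of glutamine use.

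In this family a ligand dimer joins type I and type II receptor kinases, and the type I receptor phosphorylates SMAD proteins. TGF-beta and activin act mainly through SMAD2 and SMAD3, and BMPs through SMAD1, SMAD5 and SMAD9. The phosphorylated SMADs join SMAD4 and regulate genes in the nucleus, among them SMAD6 and SMAD7, which feed back on the receptors. In pancreatic cancer the pathway is known for its loss through SMAD4, and AsPC-1 itself is known to carry a missense change in SMAD4.

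BMP4 fell and SMAD3 rose with DON, and these were the largest changes among the 10 genes. BMP4 went from 202 ± 20.5 to 83.7 ± 8.5 FPKM (fragments mapped to a gene, per length and per library size; mean ± SD, n = 3 per group). SMAD3 went from 26.0 ± 2.73 to 52.1 ± 4.75 FPKM. TGFBR2 and TGFB1 fell by less, and TGFBR1 and SMAD7 did not pass the test. The activin genes INHBA, INHBB and INHBE and the ligand TGFB2 lay below the level needed for testing.

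The test was limma on log2(FPKM + 1) over all 11471 genes that reached 1 FPKM in 3 or more libraries, with Benjamini-Hochberg adjustment over all of them and a threshold of 0.05. Of the 10 genes 6 were tested, each of them above 1 FPKM in every library of both groups. Of these 6, 1 rose and 3 fell. Across all tested genes 18.3% were called higher and 20.6% lower, 38.9% in all. The median log2 fold change was -0.27 over the 6 genes and -0.01 over all tested genes. Groups did not overlap for 5 of the 6, against 51.5% of all tested genes. With changes this common in the whole table, the count of 4 says little about the family, and the size of each change is what the text describes.

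The FPKM of a library summed to 525200 to 556950, and depth is unknown. The first principal component (61.6% of the variance) separated the groups. By the sign of the second (19.7%), DON 1 fell on the side of vehicle 1 and vehicle 2, and DON 2 and DON 3 on that of vehicle 3. Differences within both sides are given with the results. On one side DON 1 stands alone against vehicle 1 and vehicle 2. On the other vehicle 3 stands alone against DON 2 and DON 3. The sides were read from these same data, so like values on both are no replication. Vehicle 1 stood apart at low levels. It had 73 genes at 1 FPKM or more that stayed below 1 FPKM and at least 4-fold lower in every other library, against 15 to 23 such genes in the other libraries. This count was added after the values were seen.

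The cells' labels were checked against markers. EPCAM lay at 928 to 1201 FPKM and KRT19 at 1527 to 2377 FPKM in all libraries. KRT8 and KRT18 both carried a failure mark in vehicle 3, DON 2 and DON 3, the libraries on the same side by the second principal component. All 5 endothelial and all 5 acinar markers stayed below 1 FPKM in every library, as did 8 of 10 fibroblast, 5 of 6 leukocyte and 3 of 4 endocrine markers. The defining genes COL1A1 and PTPRC reached at most 0.0766 and 0.258 FPKM. The exceptions were LUM at 88.1 to 171 FPKM, ACTA2 at 0.383 to 3.40 FPKM, CD68 at 16.6 to 40.2 FPKM and SST, at 1.11 FPKM in vehicle 1 alone. The summed fibroblast list, nearly all of it LUM, was 143 to 173 FPKM in vehicle and 89.7 to 125 FPKM in DON. LUM fell (153 ± 16 to 110.0 ± 19.2 FPKM, limma adjusted p = 0.0387), a call lost without any one of the 6 libraries (adjusted p 0.0502 to 0.0905). Of 10 tested epithelial markers 0 rose and 4 fell, MUC1, CEACAM6, TFF1 and GATA6, with a list median log2 fold change of -0.36. Over all tested genes 18.3% were called higher and 20.6% lower. The calls of CEACAM6 and GATA6 were lost without any one library except DON 3 (adjusted p up to 0.13), and that of TFF1 without vehicle 1, DON 1 or DON 3 (up to 0.0757). Over all alternative settings the limma adjusted p reached 0.21 for CEACAM6, 0.171 for GATA6, 0.13 for TFF1 and 0.167 for LUM. MUC1, an epithelial mucin, went from 42.9 ± 12.4 to 19.3 ± 0.831 FPKM. The part of these marker changes in the results was not tested. In bulk RNA, fewer cells of a kind and less RNA per cell cannot be told apart.

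The upstream regions of SMAD3 and BMP4 are shown because these genes made the largest changes. Each is 250 bases before a RefSeq transcript start. Of the RefSeq windows that overlap no exon of the gene in GENCODE v29, the one nearest a principal transcript start was taken. Its RefSeq start lay 243 bases from the nearest principal start for SMAD3 and 498 bases for BMP4. BMP4 windows with starts 60 and 64 bases away overlapped its exons and were not taken. Capitals mark the short SMAD-binding box CAGAC, which reads GTCTG on the other strand, and the GC-rich SMAD site GGCGCC. On GRCh38.p14 the window of SMAD3 is chr15:67065352-67065601 (plus strand) and that of BMP4 is chr14:53955051-53955300 (minus strand).
SMAD3: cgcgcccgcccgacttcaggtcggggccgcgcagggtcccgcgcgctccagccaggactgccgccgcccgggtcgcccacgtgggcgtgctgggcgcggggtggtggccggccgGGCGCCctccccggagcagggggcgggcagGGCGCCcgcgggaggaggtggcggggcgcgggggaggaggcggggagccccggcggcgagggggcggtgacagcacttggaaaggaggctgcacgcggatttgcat
BMP4: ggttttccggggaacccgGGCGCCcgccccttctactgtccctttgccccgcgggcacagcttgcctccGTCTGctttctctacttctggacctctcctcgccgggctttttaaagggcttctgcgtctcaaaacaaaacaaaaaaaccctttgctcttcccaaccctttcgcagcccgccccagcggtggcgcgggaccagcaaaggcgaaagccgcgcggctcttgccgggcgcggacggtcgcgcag
The SMAD3 window held GGCGCC 2 times and no CAGAC. The BMP4 window held each motif 1 time, with no overlap between them. Among 35116 RefSeq windows of the same length, searched on both strands, 38% held CAGAC and 16.4% held GGCGCC. Neither window held the SMAD palindrome GTCTAGAC (0.182% of all windows) or the ATF4 response element TTNCATCA (3.14% of all windows). GC content was 80.8% in the SMAD3 window and 63.6% in the BMP4 window. A match to such short letters is only a description. RefSeq windows were found for 9 of the 10 genes, in 25 windows.

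**Figure D1:**
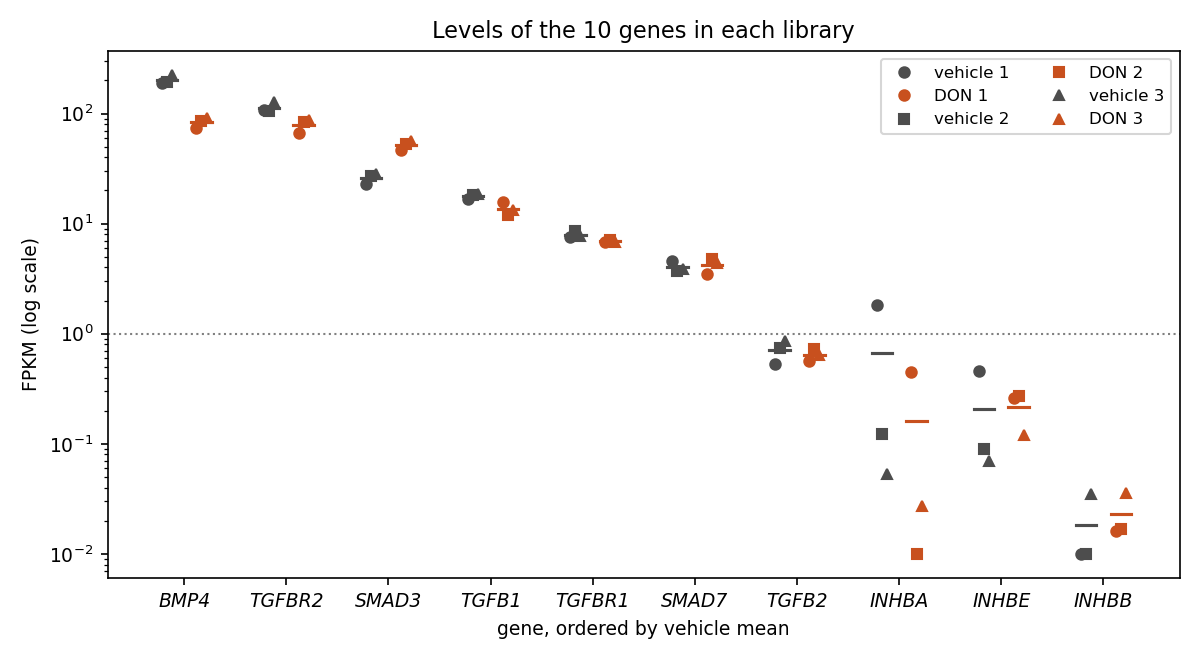
Levels of the 10 genes in FPKM on a log axis, by gene in order of the vehicle mean. Points are single libraries (grey vehicle, orange DON, with circle, square and triangle for replicates 1, 2 and 3), bars are group means and the dotted line is 1 FPKM. BMP4 and SMAD3 separate by group, while INHBA reaches 1.82 FPKM in vehicle 1 only.

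Among the ligands, BMP4, which patterns embryonic gut and other tissues, was by far the most abundant. In vehicle it stood at 188, 191 and 225 FPKM, and in DON at 74.4, 85.6 and 91.0 FPKM. Every DON library lay below every vehicle library. The fall was 2.41-fold (limma, log2 fold change -1.26 ± 0.11 SE, 95% interval -1.53 to -0.99, adjusted p = 0.000319). Only 259 of the 11471 tested genes had a lower log2 fold change. Within each side of the library split the log2 difference was -1.34, with a single library for one of the groups on each side. BMP4 passed the test in all 15 alternative settings (limma adjusted p 6.18e-06 to 0.00529). The lowest came with a term for the library split, which was read from these same data. With a replicate block it was 0.000187.

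TGFB1, the most widely expressed TGF-beta ligand, stood at 16.9, 18.2 and 18.6 FPKM in vehicle and at 15.6, 12.1 and 13.3 FPKM in DON. The groups did not overlap, but DON 1 lay close to vehicle 1. The fall was 1.31-fold (limma, log2 difference -0.37 with an SE of 0.11, adjusted p = 0.0356). The call did not hold without vehicle 1 (adjusted p = 0.0575), vehicle 2 (0.101), vehicle 3 (0.0799), DON 2 (0.133) or DON 3 (0.0994), and without the filter on low genes (0.108). The log2 difference was -0.155 on the side of the split that holds DON 1 and -0.519 on the other. TGFB1 shares exon sequence with HNRNPUL1 on the opposite strand in GENCODE v29. The use of strand in counting is not given in the sources used here, so reads of the pair may not be separable.

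TGFB2, a related ligand, was low. It shares exon sequence with TGFB2-OT1 on the same strand in GENCODE v29, so even counting by strand could not separate their reads. It stood at 0.534, 0.743 and 0.866 FPKM in vehicle and at 0.564, 0.731 and 0.641 FPKM in DON. All 3 DON values lay within the vehicle range. Without a filter the fit gave a log2 fold change of -0.06 (95% interval -0.29 to 0.18, limma adjusted p = 0.980).

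INHBA encodes the beta A subunit of activin A. Vehicle 1 held 1.82 FPKM, against 0.122 and 0.0532 FPKM in vehicle 2 and vehicle 3. The DON libraries held 0.445, 0.01 and 0.0274 FPKM, where 0.01 is the table's floor. The vehicle mean rested on 1 library, and the unfiltered fit gave an interval from -1.58 to 0.82 on the log2 scale. FST, whose product follistatin binds activin, also stood out in vehicle 1, at 1.58 FPKM against 0.256 FPKM or less elsewhere.

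INHBB and INHBE encode the beta B and beta E subunits. INHBB stood at the floor of 0.01 FPKM in vehicle 1 and vehicle 2 and at 0.035 FPKM in vehicle 3. In DON it ranged from 0.0162 to 0.0361 FPKM, so it lay at or near the floor in every library. INHBE stood at 0.456, 0.0896 and 0.0704 FPKM in vehicle and at 0.262, 0.271 and 0.121 FPKM in DON. The 3 DON values of INHBE lay between vehicle 1 and the other vehicle libraries, and no direction could be read.

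Of the receptor pair, TGFBR2 fell and TGFBR1 did not pass the test. TGFBR2 encodes the type II receptor, which binds TGF-beta first. Its vehicle libraries stood at 107, 106 and 126 FPKM and its DON libraries at 66.4, 83.2 and 87.7 FPKM, without overlap. The fall was 1.43-fold (limma, log2 difference -0.52 with an SE of 0.13, adjusted p = 0.0195). The call, not the size, was lost without DON 2 (log2 fold change -0.56, adjusted p = 0.0510) and without the filter (-0.52, 0.0956). The log2 difference was -0.674 and -0.556 within the sides of the library split.

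TGFBR1 encodes the type I receptor kinase that acts on SMAD2 and SMAD3. It stood at 7.51, 8.5 and 7.76 FPKM in vehicle and at 6.80, 7.16 and 6.82 FPKM in DON. The groups did not overlap, yet the difference missed the threshold (log2 fold change -0.17, 95% interval -0.38 to 0.04, limma adjusted p = 0.170). Within the sides of the library split the log2 difference was -0.205 and -0.133. The ratio of TGFBR2 to TGFBR1 within a library was 14.3 ± 1.86 in vehicle and 11.4 ± 1.56 in DON, and these ranges overlapped (exact permutation test, two-sided, p = 0.2, where 3 against 3 cannot go below 0.1).

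SMAD3, the receptor-activated SMAD that binds DNA for TGF-beta and activin, stood at 22.9, 27 and 28 FPKM in vehicle and at 47.1, 52.8 and 56.5 FPKM in DON. The lowest DON library was above the highest vehicle library. The rise was 2.01-fold (limma, log2 fold change 0.98 ± 0.11 SE, 95% interval 0.72 to 1.24, adjusted p = 0.000817). Of all tested genes 381 had a higher log2 fold change. The log2 difference was 0.895 and 0.938 within the sides of the library split. SMAD3 passed in all 15 alternative settings (limma adjusted p 0.00013 to 0.00923). Here too the lowest came with the library split term, and with a replicate block it was 0.000349. An antisense gene overlaps exons of SMAD3 in GENCODE v29, with the same limit as for TGFB1.

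SMAD7, the inhibitory SMAD that TGF-beta itself induces, stood at 4.61, 3.72 and 3.87 FPKM in vehicle and at 3.52, 4.73 and 4.4 FPKM in DON. The groups overlapped fully, with DON libraries at both ends. The log2 fold change was 0.04 (95% interval -0.27 to 0.35, limma adjusted p = 0.831), and its sign turned when vehicle 2 or DON 2 was left out. Within the library split the log2 difference was -0.186 on the side that holds DON 1 and 0.193 on the other.

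**Figure D2:**
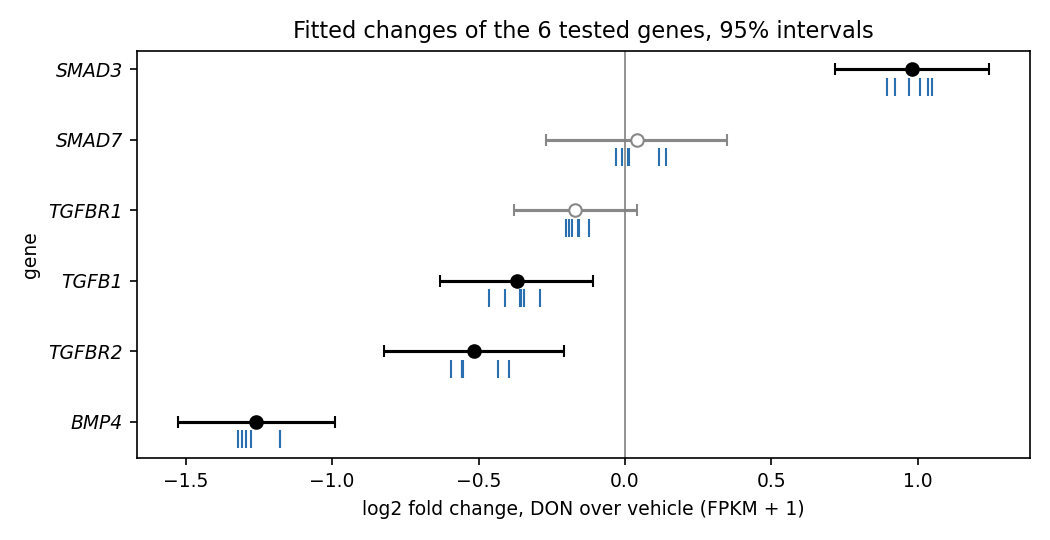
Fitted log2 fold changes (DON over vehicle, FPKM + 1) of the 6 tested genes with 95% intervals. Filled points passed at adjusted p under 0.05, and blue ticks are the fits with each library left out. SMAD3 at 0.98 and BMP4 at -1.26 lie at the ends, and the ticks of SMAD7 fall on both sides of 0.

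The order of the genes by FPKM in vehicle was BMP4, TGFBR2, SMAD3, TGFB1, TGFBR1 and SMAD7, with no overlap between neighbours. TGFB2, INHBA, INHBE and INHBB followed. TGFB2 overlapped INHBA and INHBA overlapped INHBE. In DON the first 7 genes kept this order, but BMP4 (83.7 ± 8.5) and TGFBR2 (79.1 ± 11.2) overlapped. INHBE and INHBA changed places there, and their values overlapped.

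Ratios within a library showed how unequal the changes were. SMAD3 was 6.67 ± 0.941 times SMAD2, the other SMAD of the TGF-beta branch, in vehicle and 12.8 ± 0.998 times in DON. Against SMAD1, a SMAD of the BMP branch, it went from 0.991 ± 0.0342 to 2.90 ± 0.384. BMP4 was 38.6 ± 15.1 times its secreted antagonist NOG in vehicle and 8.10 ± 2.21 times in DON. BMP4 made up 78.3% ± 2.15 of the summed FPKM of 32 family ligands in vehicle and 50.8% ± 8.59 in DON. The share of GDF15, a distant and stress-responsive family member, went from 6.19% ± 0.974 to 30.7% ± 7.55. The summed ligand FPKM under these shares was itself 257 ± 19 in vehicle and 166 ± 12 in DON. None of these 5 ratios and shares overlapped between groups, and each gave the smallest exact permutation p that 3 against 3 allows, 0.1. Each rests on SMAD3, BMP4 or GDF15, whose groups already did not overlap, so these p-values add no separate support.

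**Figure D3:**
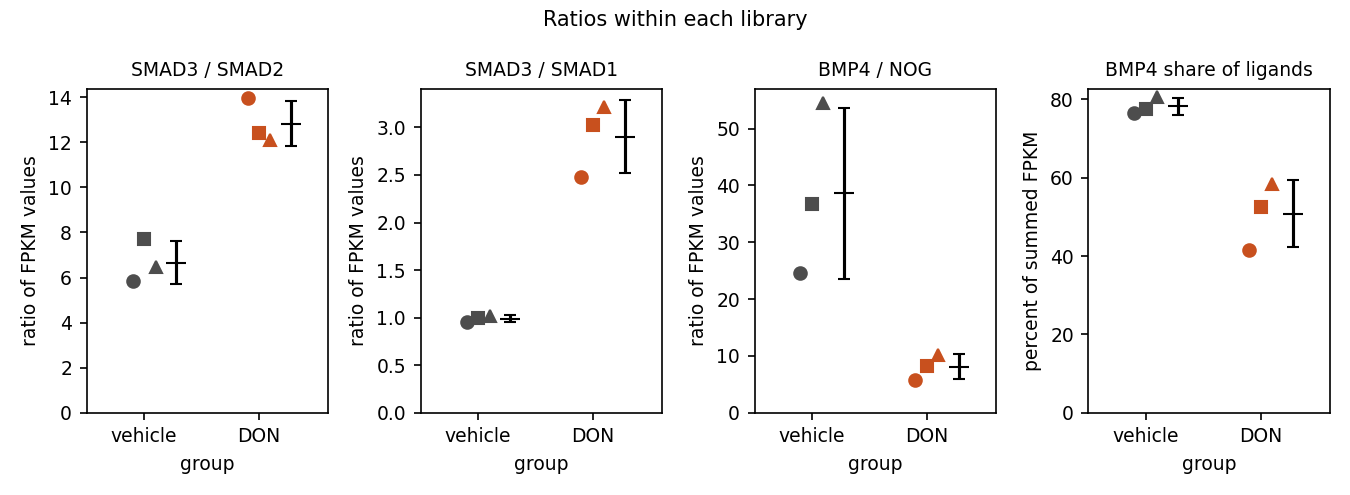
SMAD3 over SMAD2, SMAD3 over SMAD1 and BMP4 over NOG as ratios of FPKM, and BMP4 as percent of the summed FPKM of the ligands, in each library. Points are libraries (circle, square and triangle for replicates 1, 2 and 3) and bars are mean ± SD (n = 3). The SMAD3 ratios are higher in all DON libraries, and the BMP4 ratio and share are lower.

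The wider pathway was described by 9 gene lists, some sharing genes. Of 151 listed genes 150 were found and 85 tested, of which 17 rose and 25 fell (median log2 fold change 0.02, against -0.01 over all tested genes). Over all tested genes 18.3% were higher and 20.6% lower, and the counts of each list stand against these shares. ENG and SOSTDC1 were above 1 FPKM in vehicle alone and passed the filter through that group, so their p-values are given from the fit without a filter. Neither was tested when a vehicle library was left out, since too few libraries then reached 1 FPKM. Without DON 2 the called genes numbered 27, with 9 higher and 18 lower.

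Of 33 ligand genes only 6 were tested, and 1 rose and 3 fell. GDF15 rose from 15.8 ± 1.45 to 51.4 ± 16.3 FPKM (limma, log2 difference 1.6 with an SE of 0.22, adjusted p = 0.00172). BMP7, a BMP of epithelia and kidney, fell from 11.7 ± 1.01 to 6.44 ± 0.375 FPKM (limma adjusted p = 0.00131). The others that fell were BMP4 and TGFB1, and the list median was -0.34.

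Of 11 tested receptors and co-receptors 1 rose and 2 fell (median 0.12), with ENG, which passed the filter through vehicle alone, among the falls. ENG, the co-receptor endoglin, fell from 2.57 ± 0.425 to 0.755 ± 0.0991 FPKM (limma adjusted p = 0.011 without the filter). ACVR1, a type I receptor for BMPs, rose 1.30-fold to 25.1 ± 0.996 FPKM (limma adjusted p = 0.0145), a call lost without DON 2 (0.050) or DON 3 (0.0598). Without DON 2 only 1 receptor was called, while a term for the library split gave 5.

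In the SMAD family 2 of 7 tested genes rose and 2 fell (median 0.05). Besides SMAD3, SMAD5 rose 1.23-fold (limma adjusted p = 0.0346), a call lost without any one library except DON 1 (0.059 to 0.137). SMAD1 fell from 26.2 ± 1.90 to 18 ± 0.865 FPKM (limma adjusted p = 0.00474). SMAD6, the inhibitory SMAD of the BMP branch, fell from 14.0 ± 2.06 to 7.84 ± 1.67 FPKM (limma adjusted p = 0.0114), a call lost without the filter (0.0756). SMAD4, the shared partner, stood at 5.89 ± 0.193 and 6.38 ± 0.221 FPKM (limma adjusted p = 0.393), and SMAD2 at 3.92 ± 0.415 and 4.10 ± 0.665 FPKM (0.806).

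Among genes that bind or release latent ligands 3 of 11 tested rose and 5 fell (median -0.30). The proprotein convertases PCSK5 and PCSK6, which cut ligand precursors, fell 2.05-fold and 1.89-fold (limma adjusted p = 0.000299 and 0.00226). LTBP1, which tethers latent TGF-beta to matrix, fell from 11.5 ± 2.16 to 5.74 ± 0.898 FPKM (limma adjusted p = 0.00479). THBS1, a matrix protein that can activate latent TGF-beta, rose from 8.03 ± 1.5 to 14.2 ± 0.822 FPKM (limma adjusted p = 0.00437).

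Of 5 tested secreted antagonists 1 rose and 2 fell (median -0.33), with SOSTDC1, which passed the filter through vehicle alone, among the falls. SOSTDC1, a BMP and Wnt antagonist, stood at 5.21, 5.21 and 5.79 FPKM in vehicle and at 0.497, 0.514 and 0.390 FPKM in DON (limma, log2 difference -2.13, adjusted p = 0.00107 without the filter). NOG, the BMP antagonist noggin, stood at 7.67, 5.21 and 4.13 FPKM in vehicle and at 12.7, 10.4 and 8.87 FPKM in DON (limma adjusted p = 0.0206). The antagonists thus moved in both directions. The call of NOG was lost without vehicle 2 (0.0649), DON 2 (0.0634) or the filter (0.123). TWSG1, a BMP-binding protein, fell 1.26-fold (limma adjusted p = 0.0134), a call that needed vehicle 2 (0.0556 without it) and DON 2 (0.067). Without vehicle 2 limma called 0 antagonists (2 had an unadjusted p under 0.05), SOSTDC1 not being tested there. Without DON 2 it called 1.

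Of 15 tested intracellular inhibitors 1 rose and 5 fell (median -0.08). BAMBI, a decoy receptor, fell from 34.6 ± 1.98 to 25.7 ± 2.17 FPKM (limma adjusted p = 0.0127), a call lost without DON 3 (0.0504). PMEPA1, which binds SMAD2 and SMAD3, fell from 122 ± 2.58 to 95.1 ± 3.21 FPKM (limma adjusted p = 0.00874), a call lost without DON 2 (0.0546). SKI, a SMAD corepressor, fell 1.27-fold (limma adjusted p = 0.0316), a call lost without any one library except vehicle 3 (0.0519 to 0.130). The list gave 3 calls without vehicle 1 or vehicle 2 and 2 without DON 2 or DON 3. Of 10 SMAD cofactors and adaptors 1 rose and 0 fell (median 0.09). That was the deubiquitinase USP15 (1.30-fold, limma adjusted p = 0.0292), a call lost without the filter, vehicle 1, vehicle 2, DON 2 or DON 3 (0.0594 to 0.118). Without vehicle 3 this list gave 2 calls.

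Of 23 tested TGF-beta and activin target genes 8 rose and 5 fell (median 0.09), so the list went both ways. CDKN2B, a cell cycle inhibitor, rose from 31.3 ± 1.36 to 69.6 ± 1.09 FPKM (limma adjusted p = 0.000114). SNAI2, a repressor of epithelial genes, rose from 13.2 ± 1.18 to 29.7 ± 5.63 FPKM (limma adjusted p = 0.00174). CTGF, a matricellular protein that other pathways also induce, fell from 35.2 ± 0.331 to 13.1 ± 1.91 FPKM (limma adjusted p = 0.000251). SMAD7 and PMEPA1, both on this list as well, did not pass and fell, respectively. Many of these genes have other known inducers.

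Of 8 tested BMP target genes 5 fell and 1 rose (median -0.45, the lowest of the 9 list medians). ID2, an inhibitor of helix-loop-helix factors, stood at 6.95, 6.75 and 9.49 FPKM in vehicle and at 2.94, 2.91 and 4.52 FPKM in DON (limma, log2 difference -0.98 with an SE of 0.18, adjusted p = 0.00628). Its call was lost without the filter (0.052). HES1, a repressor that Notch also controls, fell from 25.9 ± 1.47 to 14.2 ± 0.354 FPKM (limma adjusted p = 0.00046). ID1, SMAD6 and BAMBI were the others that fell, and NOG was the gene that rose. Without the filter only 3 BMP targets were called, all lower.

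**Figure D4:**
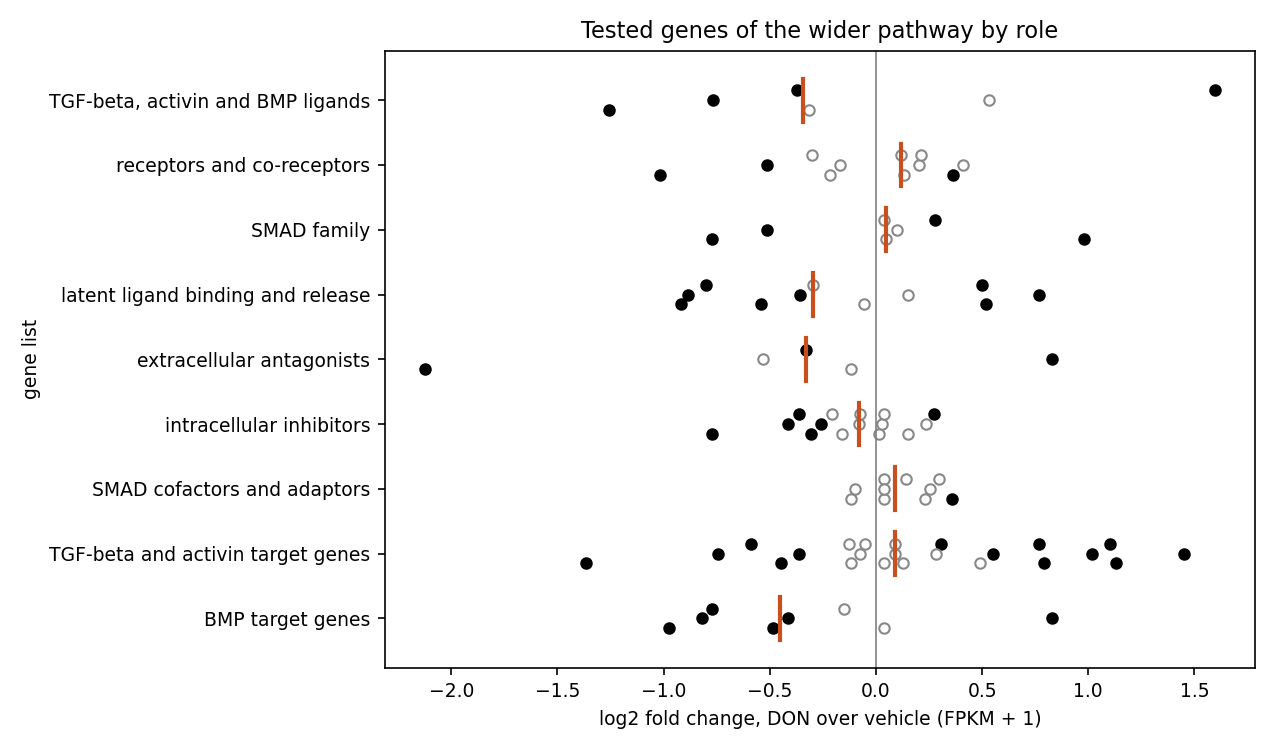
Log2 fold changes (DON over vehicle, FPKM + 1) of the tested genes of 9 lists. Filled points passed at adjusted p under 0.05, open points did not, and orange bars are list medians. The median of BMP target genes lies at -0.45, and TGF-beta and activin targets spread to both sides.

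Genes with the most similar pattern over the 6 libraries were found by Pearson r of log2(FPKM + 1) among 8968 genes whose higher group mean was 5 FPKM or more. For SMAD3 they were WDR48 (r = 0.9995), CCPG1 (0.9992) and CDC14B (0.999). For BMP4 they were HSPA1B (0.9997), whose near-identical copy HSPA1A makes its value uncertain, VDR (0.9993) and SLC39A10 (0.9992). All share the step between the 2 groups, so such values are common. An r of at least 0.95 was reached by 803 genes for SMAD3 and 712 for BMP4.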

How the data were processed

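RNA was measured in 6 AsPC-1 libraries, read as single 75 bp reads from directional poly(A) libraries per the labels' protocols. The authors deposited FPKM values in rows named by gene symbol (4 rows share one). Per the submitters' processing notes, STAR and the hg19 genome were used. What computed FPKM, on which annotation and with what use of strand, is not given in the sources used here. No value was below 0.01, and 41 rows with a failure mark were left out of tests. Columns named control were taken as vehicle by their number. FPKM hold no counts, so no counting interval is given.

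Values were analysed as log2(FPKM + 1), which understates changes of low genes, in limma 3.58.1 (R 4.3.3) with an intensity trend and no replicate block, two-sided. Genes that reached 1 FPKM in 3 or more libraries were tested. Fold values are ratios of FPKM means. The fit was tested on simulated data whose spread was shuffled between genes. It called most of the large changes placed there and few of the small ones. Far fewer genes were changed there than were called in the data, and the spread was shuffled anew for each library. How often it called a change therefore does not carry over to the present fit. A gene that did not pass may still differ. Python 3.11.15, pandas 2.3.3, numpy 2.4.6, scipy 1.17.1 and matplotlib 3.10.9 were used. Promoter sequences are RefSeq's on GRCh38.p14, so no coordinates were set against the deposited values.

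The genes and lists were chosen with earlier results of these data known. All 10 genes are named. ID1, SMAD2, SMAD4, FST and NBL1 are named beside a result. Of each list, up to 4 other called genes with the largest change are named. Where none was called, the tested gene with the highest mean is named. A gene that this rule takes is not reported here. For the largest rise and fall, the 3 genes of highest Pearson r are given. The alternatives tried were no filter or one at 5 FPKM, 0.1 as the pseudocount, quantile or median-of-ratios normalization, no trend and failure marks kept. A replicate block, a library split term and leaving out each library were also tried. The library split was read from these same libraries, so its term takes up part of their spread by construction. With it 6031 genes were called.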

Additional observations from a re-analysis of the deposited data

How the results depend on the processing

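BMP4 and SMAD3 kept their direction and call in all 15 alternatives. TGFBR2 kept its call in 13 of 15 and TGFB1 in 9 of 15. TGFBR1 and SMAD7 did not pass in any alternative that tested them. Without a filter, 2942 genes were called against 4459, the 10 genes gave 2 calls, TGFB1 (log2 fold change -0.37) and TGFBR2 (-0.52) lost theirs, BMP targets gave 3 and cofactors 0 by limma (3 at an unadjusted p under 0.05). Cofactors gave 2 calls under quantile normalization and 2 with the library split term, under which receptors gave 5. Leaving out 1 library gave 2688 to 4639 called genes and 2 to 4 calls among the 10 genes, the lowest of both without DON 2. It gave 27 to 40 calls over the 9 lists, 1 to 3 among receptors, 0 to 4 among antagonists, 2 to 4 among intracellular inhibitors and 0 to 2 among cofactors. Where limma called 0, 1 or 2 genes of the list had an unadjusted p under 0.05. The log2 fold change ran from -0.46 to -0.29 for TGFB1, from -0.59 to -0.40 for TGFBR2 and from -0.03 to 0.14 for SMAD7. SMAD7 turned to -0.0096 without vehicle 2 and to -0.0313 without DON 2. Without vehicle 2 one cause of the lower antagonist count was that SOSTDC1 was not tested, and for the other changes the cause was not tested. Of 30 other genes named by the rule, 15 kept their call in every alternative that tested them and 0 reversed. Replicate numbers pair no libraries by the labels. Same-numbered libraries' deviations correlated at 0.254, -0.184 and 0.502, and not every library correlated best with its own number. With the replicate block 5414 genes were called, the 10 genes gave 4 calls, and no call of the 6 tested genes changed. The median shift of all genes was at most 0.021 on the log2 scale under another scaling. Depth is unknown, and the 4 untested genes cannot be compared firmly.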

Other observations

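Several pathway genes below the tested level also differed in value between the groups. They were chosen after their values were seen and were not tested. GDF11, a ligand close to myostatin, stood at 1.72, 0.730 and 0.763 FPKM in vehicle and at 0.0961, 0.199 and 0.253 FPKM in DON. MSX1, a homeobox gene induced by BMPs, stood at 0.665, 0.785 and 0.847 FPKM in vehicle and at 0.0843, 0.145 and 0.187 FPKM in DON. ID3, a BMP target, stood at 0.720, 1.51 and 0.709 FPKM in vehicle and at 0.0940, 0.584 and 0.313 FPKM in DON. LDLRAD4, an inhibitor of TGF-beta signalling, stood at 0.680, 0.561 and 0.653 FPKM in vehicle and at 0.224, 0.280 and 0.287 FPKM in DON. Among untested genes of the lists the groups also did not overlap for BMP6, a BMP ligand, and ZEB2, a repressor of epithelial genes, whose values were higher in DON. BMP6 stood at 0.210, 0.179 and 0.325 FPKM in vehicle and at 0.386, 0.330 and 0.671 FPKM in DON. ZEB2 stood at 0.0227, 0.0357 and 0.0234 FPKM in vehicle and at 0.0380, 0.0956 and 0.0796 FPKM in DON. Groups do not overlap for 51.5% of all tested genes, but no such share was computed for genes below the tested level. LTBP3, which carries latent TGF-beta, had a failure mark in DON 1 and stood at 27.7, 25.7 and 17.5 FPKM in vehicle and at 15.2 FPKM in both other DON libraries.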
